A study of Mus musculus with 2 samples.

Results

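Of the 51709 chromatin regions that were accessible in both thymus samples, 1218 lay at the start of a long noncoding RNA gene and away from any protein-coding gene start. They were found as strict peaks of DNase I sequencing that overlapped a strict peak of the other sample by at least 1 bp, joined to regions, within 1000 bp of a transcription start site (TSS) of a GENCODE M21 gene of type lincRNA or antisense, and over 1000 bp from every protein-coding TSS. The type name lncRNA is not used by that release. The nearest such TSS belonged to a lincRNA gene for 855 regions and to an antisense gene for 363. For comparison, 19887 shared regions lay within 1000 bp of a protein-coding TSS and 29398 lay over 1000 bp from any TSS and are called distal. A further 1496 regions lay near a long noncoding and a protein-coding TSS together and were left out by the rule.

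The study mapped DNase I accessibility in whole thymus of male B6CASTF1/J mice aged 2 months, the first-generation cross of C57BL/6J with CAST/EiJ. It holds 1 untreated group of 2 replicates. The labels number a separate animal for each replicate but give both the same donor identifier, so the replicates may not show the full spread between animals. Whole thymus holds mostly developing T cells, with stromal and other blood cells among them, and a region open in few cells cannot be told apart from one weakly open in many. Of 100 T cell coding genes in a list, 95 had a shared region within 1000 bp of a TSS, against 58.9% of all 21938 protein-coding genes. The list was chosen with earlier results of these data known. The strict lists held 63832 and 67929 peaks for replicates 1 and 2. Sequencing depth is not stated in the files. With 1 group there is no contrast to test: counts, medians and shares are given for these samples, and 95% Wilson intervals on shares cover counting error only.

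DNase I cuts DNA where nucleosomes are displaced, which happens at active and poised promoters, enhancers and insulators. Within such a region a bound protein can shield its site, leaving a short stretch with few cuts, called a footprint. Long noncoding RNA genes give rise to transcripts that are not translated. Some act on chromatin or in nuclear bodies, and some are hosts for small RNAs cut out of their introns or exons. For some the act of transcription or the DNA element at the start is the part known to matter. LincRNA genes lie between protein-coding genes, and antisense genes overlap one on the other strand.

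The regions printed below were each the highest of their gene or kind by peak score. They do not show the full range of what was open. All sequences were read from RefSeq's GRCm38.p6 assembly (mm10), which is the C57BL/6J reference, and are printed 5′ to 3′ on the strand of the long noncoding gene. Capitals mark bases inside footprints common to both replicates. Gm12762 was the highest region whose sequence was unique in the genome (chr7:34234041-34234300), with 96 of 260 bases in common footprints. Mir142hg, the host of a blood-cell microRNA, was highest among the microRNA hosts (chr11:87755421-87755680, 52 of 260 bases).
Gm12762: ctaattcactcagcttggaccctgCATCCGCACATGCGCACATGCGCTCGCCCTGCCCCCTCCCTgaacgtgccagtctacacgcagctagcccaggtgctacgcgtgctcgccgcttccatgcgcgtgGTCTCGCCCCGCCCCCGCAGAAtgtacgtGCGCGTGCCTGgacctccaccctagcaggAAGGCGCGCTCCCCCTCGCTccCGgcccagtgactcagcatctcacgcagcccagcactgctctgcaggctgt
Mir142hg: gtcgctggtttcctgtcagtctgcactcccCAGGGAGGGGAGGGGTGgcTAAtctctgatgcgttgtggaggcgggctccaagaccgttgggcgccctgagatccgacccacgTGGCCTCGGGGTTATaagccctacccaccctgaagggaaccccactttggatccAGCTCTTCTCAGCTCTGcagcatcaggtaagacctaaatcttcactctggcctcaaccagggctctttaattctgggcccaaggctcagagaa

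Malat1, the abundant RNA of nuclear speckles, was highest among the widely expressed genes, at a region upstream of its TSS (chr19:5803501-5803680, 52 of 180 bases). Kcnq1ot1, which silences neighbouring genes on the paternal chromosome, was highest among the autosomal imprinted genes (chr7:143296511-143296810, the central part of its region, 66 of 300 bases).
Malat1: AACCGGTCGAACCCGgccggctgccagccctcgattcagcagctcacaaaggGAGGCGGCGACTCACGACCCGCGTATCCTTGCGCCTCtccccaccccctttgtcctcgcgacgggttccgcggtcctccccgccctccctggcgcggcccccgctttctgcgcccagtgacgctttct
Kcnq1ot1: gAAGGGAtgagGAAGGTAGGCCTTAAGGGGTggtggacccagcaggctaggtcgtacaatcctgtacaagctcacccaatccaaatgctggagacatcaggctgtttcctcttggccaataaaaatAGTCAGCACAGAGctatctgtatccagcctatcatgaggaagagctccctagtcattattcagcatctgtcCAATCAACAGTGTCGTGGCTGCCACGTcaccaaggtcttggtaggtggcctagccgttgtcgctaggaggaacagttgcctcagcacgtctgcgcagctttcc

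The next pair shows regions beside T cell genes. The region of 2310001H17Rik lies near Cd69 (chr6:129237941-129238180, 83 of 240 bases) and that of Gm44174 near Cd8a (chr6:71353781-71354040, 58 of 260 bases). Snhg7os had the highest region with a match to the CTCF consensus inside a common footprint (chr2:26640181-26640380, 58 of 200 bases).
2310001H17Rik: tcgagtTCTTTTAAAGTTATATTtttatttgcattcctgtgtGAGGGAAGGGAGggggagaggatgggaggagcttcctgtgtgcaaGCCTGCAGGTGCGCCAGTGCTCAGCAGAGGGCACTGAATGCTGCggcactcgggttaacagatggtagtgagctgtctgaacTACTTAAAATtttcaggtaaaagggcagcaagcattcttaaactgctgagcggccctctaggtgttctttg
Gm44174: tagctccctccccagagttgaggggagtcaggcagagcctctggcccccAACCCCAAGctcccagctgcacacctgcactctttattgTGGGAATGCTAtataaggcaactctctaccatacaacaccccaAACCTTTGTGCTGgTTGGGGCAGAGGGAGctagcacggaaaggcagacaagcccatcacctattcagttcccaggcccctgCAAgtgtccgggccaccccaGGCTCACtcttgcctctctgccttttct
Snhg7os: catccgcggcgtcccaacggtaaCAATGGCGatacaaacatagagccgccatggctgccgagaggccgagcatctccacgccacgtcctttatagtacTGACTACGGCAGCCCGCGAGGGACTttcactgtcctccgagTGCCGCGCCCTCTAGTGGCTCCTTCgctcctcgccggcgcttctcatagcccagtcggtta

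A minority of long noncoding genes were open. Of 8813 such genes, 953 had at least 1 of the regions (10.8%, 10.2 to 11.5%), against 12918 of 21938 protein-coding genes with a shared region within 1000 bp of a TSS (58.9%, 58.2 to 59.5%). Another 933 long noncoding genes had a shared region only within 1000 bp of a protein-coding TSS as well, which brings the genes with any shared region at a TSS to 1886 (21.4%). Restricting to the 7506 genes that have a TSS over 1000 bp from coding ones, 927 had a region (12.4%, 11.6 to 13.1%). The share was 11.8% of 5508 lincRNA genes and 13.8% of 1998 antisense genes, with intervals of 11 to 12.7% and 12.3 to 15.3%.

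Genes with more annotated starts were more often open in both classes. A gene counts as open by a region at any of its TSSs, so more TSSs give more windows in which a region can fall. Among long noncoding genes with 1 TSS away from coding genes, 613 of 5773 (10.6%) had a region, and with 6 or more TSSs, 34 of 73 did (46.6%, 35.6 to 57.9%). The same figures for protein-coding genes were 27.8% and 87.8%. At 1 TSS each, therefore, 10.6% of long noncoding genes stood beside 27.8% of coding genes. Of the 953 genes, 711 had 1 region, 187 had 2 and 55 had 3 or more. The genes with most were 2310001H17Rik with 6, and C920006O11Rik, Frmd8os and Lncpint with 5 each.

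Most genes open in 1 replicate were open in the other. A strict peak under the same rule was found for 1062 genes in replicate 1 and 1050 in replicate 2, of which 110 and 98 had one in that replicate alone. Of the 6579 genes with a TSS away from coding genes and no region, 6040 (91.8%) had no peak even in the looser lists of either replicate, and 226 had a looser peak in both. Of those 6040, 111 in replicate 1 (1.84%) and 122 in replicate 2 (2.02%) had a stretch with a false discovery rate under 0.05 within the window.

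Open regions were concentrated at the annotated starts, though less sharply than at coding genes. Around the 5′ ends of the 6377 long noncoding genes over 6000 bp from coding starts, the midpoints of shared regions within 500 bp numbered 89.1 per 1000 genes, against 23.2 per 1000 genes per kb in the flanks 2000 to 5000 bp away. This is a 3.84-fold excess. For protein-coding genes the figures were 580.7 and 40.5, a 14.3-fold excess. The 100 bp just upstream of the 5′ end was the bin with the highest number in both classes, with 24.0 per 1000 long noncoding genes and 222.4 per 1000 coding genes.

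**Figure D1:**
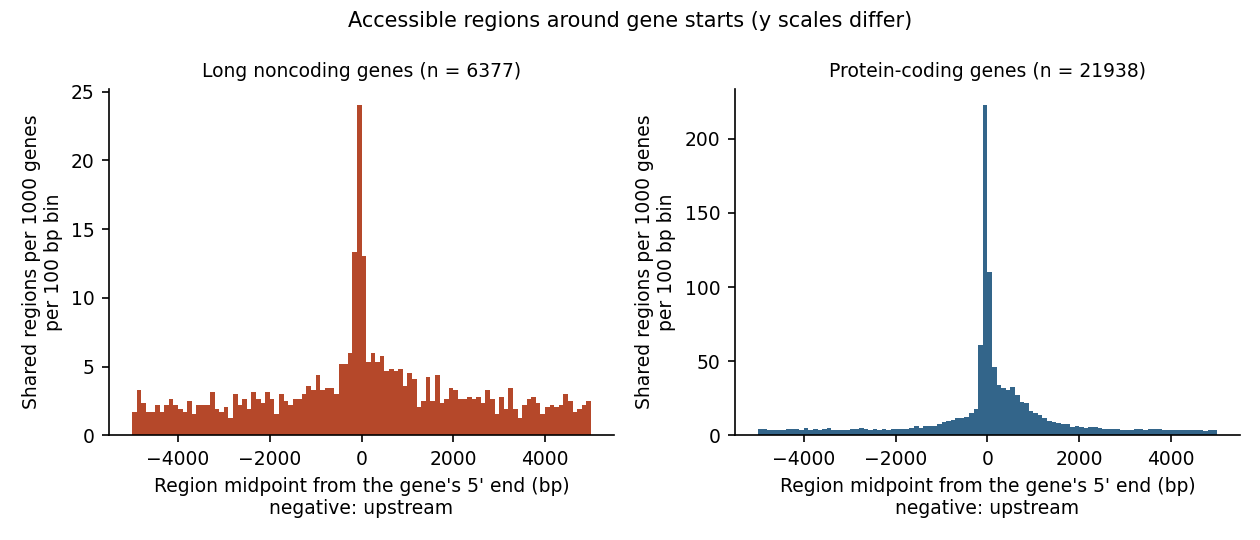
Shared regions per 1000 genes in 100 bp bins (y axis, scales differ) by the distance of the region's midpoint from the gene's 5′ end (x axis, bp, negative upstream), for 6377 long noncoding genes over 6000 bp from coding starts (left) and 21938 protein-coding genes (right). Both peak in the bin just upstream, at 24.0 and 222.4, and the long noncoding peak stands on a flank that is a larger part of it.

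A TSS lay inside 435 of the 1218 regions (35.7%, 33.1 to 38.4%), compared with 61.8% of the regions at coding promoters. The median distance from midpoint to TSS was 320.5 bp for long noncoding and 119.5 bp for coding promoters, and 56.9% and 58.8% of midpoints lay upstream. Regions that held the TSS had median scores of 2.59 in replicate 1 and 1.91 in replicate 2. Those over 500 bp away had 1.74 and 1.54. At the edge of the window, the 68 regions in the last 100 bp had medians of 1.83 and 1.64, and the 61 regions in the next 100 bp, which the rule left out, had 1.51 and 1.46. At the limit set by coding genes, the 19 regions in the first 100 bp beyond it had 1.52 and 1.58, and the 26 left out in the 100 bp before it had 1.41 and 1.26.

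The score is the submitters' signal value of a peak, on a scale that is not stated, and a region takes the highest of its peaks in each replicate. Over the 1218 regions the median was 1.98 in replicate 1 (quartiles 1.13 and 3.74) and 1.63 in replicate 2 (1.01 and 3.10). Protein-coding promoter regions had medians of 4.12 and 3.12, and distal regions 1.46 and 1.42. Long noncoding promoters thus sat nearer to distal regions than to coding promoters in both replicates. By mean score, their median rank among all shared regions was at percentile 49.3. Scores over 10 were found for 40 of them (3.28%), for 16.8% of coding promoter regions and for 0.595% of distal regions, and 262 were under 1. Regions of lincRNA genes had medians of 2.03 and 1.68, and those of antisense genes 1.86 and 1.56.

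Replicate 1 was higher for 889 of the 1218 regions (73.0%), as it was for 67.3% of all shared regions. The log2 ratio of replicate 2 to replicate 1 had a median of -0.30 and an SD of 0.47 over the regions. Across regions, which are not replicates, the Pearson correlation of the log2 scores was 0.926, given as a description of these 2 samples. A single region's score rests on 2 values, which are given for each gene named. Their gap includes this general offset between replicates, so a small gap does not show that a score is precise.

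**Figure D2:**
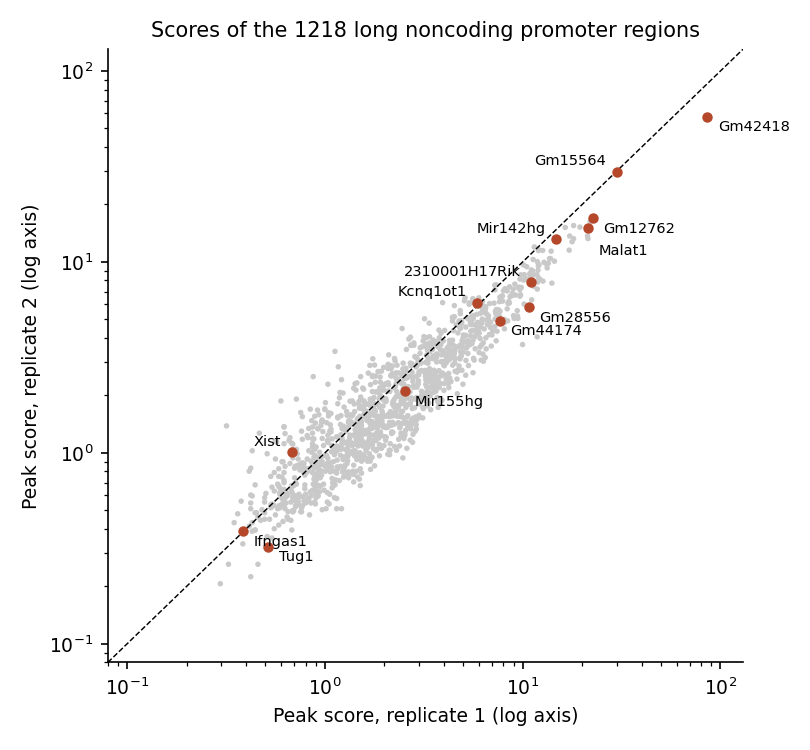
Peak score of each of the 1218 long noncoding promoter regions in replicate 1 (x, log axis) and replicate 2 (y, log axis), with the regions of 13 named genes in red and equal scores as a dashed line. Most points, 889, lie below the line. By mean score the named genes span from Ifngas1 (0.385 and 0.389) to Gm42418 (86.0 and 57.6), and Tug1 is lowest in replicate 2 (0.322).

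The highest score belonged to Gm42418, at 86.0 in replicate 1 and 57.6 in replicate 2, followed by Gm15564 at 29.8 and 29.7. Both lie in repeated sequence: 17.3% and 44.0% of their 31-base words occur once in the genome, so reads of other copies may be counted there. The region of Gm42418 lies inside CT010467.1, which the annotation gives as a ribosomal RNA gene. The next 8 regions were at 100% unique words. Gm12762, 3705 bp from the TSS of the glycolytic gene Gpi1, had 22.6 and 16.9 (mean 19.7 ± 4.0 SD, n = 2), and its region is also near the start of Gm12758. Tmem250-ps had 22.4 and 16.8, Gm15287 21.9 and 16.3, D730045B01Rik 21.3 and 13.7, Gm20732 21.4 and 13.3, Gm33195 19.5 and 15.2, and 1700113A16Rik, near the transcription factor gene Mef2d, 18.1 and 15.5. In every one of these but Gm15564 replicate 1 was higher by more than 2 units of score. D730045B01Rik has no region if only the gene's 5′ end counts as its TSS, and Gm12762 has none at over 5000 bp from coding genes. Gm15564 has none in either case. Over all 1218 regions, 92.0% had at least 90% unique words and 27 had under 50%. Of the 40 regions over a score of 10, 38 were unique by that measure, 33 were rich in CpG and 23 held the TSS.

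Genes known for a function were more often open than the background of 10.8%, except those of embryonic development. The 6 lists held 50 genes of the annotated types, and 25 of them had a region. Since the lists were put together from well-studied genes, these counts describe the lists and no test was made. Another 25 listed genes are annotated under another type and 10 listed symbols are not in the annotation release.

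Host genes of small nucleolar RNAs, which guide the modification of ribosomal RNA, had regions in 4 of 7 cases. Snhg6 scored 7.82 and 6.62 in replicates 1 and 2, Snhg12 7.32 and 5.42, Snhg20 5.44 and 4.76, and Epb41l4aos 4.80 and 4.55. All 4 regions held the TSS, and all 4 were above the median of all coding promoter regions in both replicates. Coding promoter regions that held the TSS had higher medians, 6.41 and 4.84. Snhg6 and Snhg12 were above these in both replicates, and Snhg20 and Epb41l4aos below. Snhg9 and Snhg10 were open only within 1000 bp of a coding TSS, and Snhg18 had no region. Epb41l4aos has none at over 5000 bp from coding genes.

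Of the microRNA host genes, 4 of 7 had regions. Mir142hg, whose microRNA is a hallmark of blood cells, had 3 regions, the highest at its TSS with 14.7 and 13.2 (13.96 ± 1.04), the next upstream with 12.1 and 9.67, and the last downstream with 6.87 and 4.55. Mir670hg scored 6.73 and 5.22, and Mir17hg, host of a microRNA cluster that favours lymphocyte survival, 5.46 and 4.11. Mir155hg, whose microRNA rises with immune activation, had 2 regions, with 2.53 and 2.10 at the higher. The 3 hosts without a region, Mir124a-1hg, Mir124-2hg and Mir9-3hg, carry microRNAs best known from neurons. Mir17hg has no region in a window of 500 bp, and Mir670hg has none at the gene's 5′ end.

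The list of X inactivation and imprinting had regions at 8 of 10 genes, spread over a wide range. Kcnq1ot1 scored 5.90 and 6.12, and Ftx, an activator within the X inactivation centre, 6.50 and 5.4 at the highest of its 4 regions. Airn, the antisense silencer of Igf2r, had 2.71 and 1.91, Nespas, antisense in the Gnas locus, 2.15 and 1.65, and Jpx 1.73 and 1.34. The 3 lowest were Meg3 with 0.785 and 0.784, Xist with 0.681 and 1.01, and Tsix, the antisense repressor of Xist, with 0.548 and 0.535. The Xist region lay 907 bp from the TSS and the Meg3 region 653 bp, so neither covers the annotated start, and in male cells Xist is normally silent. H19 and Mirg had no region. Xist, Meg3 and Tsix have none among the 50000 highest peaks, Airn has none with 50% reciprocal overlap, and Nespas has none at over 5000 bp from coding genes. At the gene's 5′ end only, Ftx had a mean score of 1.97 in place of 5.95.

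Among widely expressed genes 6 of 8 had regions. Malat1 had 3: 21.5 and 15 at 829 bp upstream of the TSS, 11.2 and 8.98 over the TSS, and 9.99 and 3.70 between them. Neat1, the scaffold of paraspeckles, had 4 regions. Its highest, with 11.4 and 7.46, is shared with the antisense gene Frmd8os. Lncpint had 4.33 and 3.82 at the highest of 5, 2900097C17Rik (known as Norad, a decoy for Pumilio proteins) 2.81 and 2.24 in a region with 75.4% unique words, and Pvt1, the neighbour of Myc, 2.55 and 1.92. Tug1 was lowest, with 0.519 and 0.322 at 1098 bp from the TSS of Morc2a. Miat and Trp53cor1 had no region. In a window of 500 bp Malat1 had a mean score of 10.1 in place of 18.3, and at the gene's 5′ end only Lncpint had 1.79 in place of 4.07. Tug1 has no region among the 50000 highest peaks.

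Immune long noncoding genes had regions in 3 of 7 cases and developmental ones in 0 of 11, which allows a share of up to 27.3% (3 counts). Mirt1 scored 4.11 and 3.15. Gm14005, known as Morrbid and a regulator of the death gene Bcl2l11 in myeloid cells, scored 1.95 and 1.54 at the highest of 3 regions, and Ifngas1, which lies beside Ifng, 0.385 and 0.389. Flicr and Gm15441 were open only near a coding TSS, while Mirt2 and Ptgs2os2 had none. Gm14005 has no region at the gene's 5′ end, and Ifngas1 has none among the 50000 highest peaks. In the developmental list Hotairm1 was open only near a coding TSS, and Hotair, Hottip, Halr1, Dlx1as, Dlx6os1, Evx1os, Pantr1, Rmst, Dnm3os and Otx2os1 had none.

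Accessible long noncoding genes more often had an accessible coding neighbour. The neighbour is the protein-coding gene with the nearest TSS, and it was open for 738 of the 927 open genes (79.6%, 76.9 to 82.1%) and for 3776 of the 6579 without a region (57.4%, 56.2 to 58.6%). Counted the other way, 16.3% of genes beside an open neighbour had a region (15.3 to 17.5%) and 6.32% of those beside a closed one (5.5 to 7.25%). The gap was present in each of 6 bands of distance. Within 2000 bp of the coding TSS, 48 of 236 genes with an open neighbour had a region (20.3%) and 5 of 132 with a closed one (3.79%). At over 200000 bp, it was 41 of 633 (6.48%) and 14 of 664 (2.11%). Both shares were lower beyond 50000 bp than in the 3 bands from 2000 to 50000 bp.

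**Figure D3:**
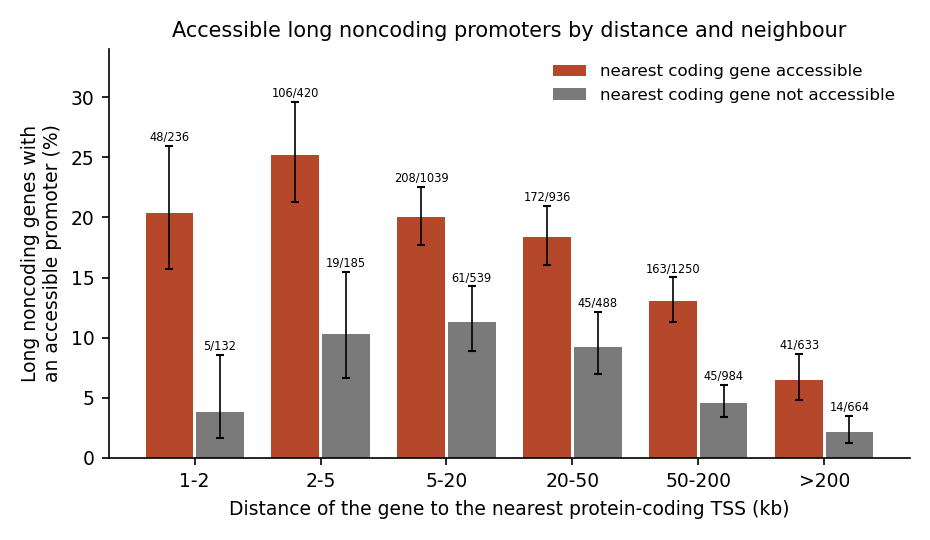
Share of long noncoding genes with an accessible promoter (y axis, %) by the distance to the nearest protein-coding TSS (x axis, kb), for genes whose coding neighbour is accessible (red) or not (grey). Bars carry 95% Wilson intervals and the counts, and the red bar is higher in each band, from 20.3% against 3.79% to 6.48% against 2.11%.

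Open long noncoding genes also lay among more distal regions, and so did genes with an open neighbour. Open genes had a median of 3 distal regions within 50000 bp and the rest 1. Genes beside an open neighbour had a median of 1 and those beside a closed one 0. Genes with 0 distal regions in reach were open in 3.96% of cases, with 1 to 2 in 14.6%, with 3 to 5 in 20.1%, with 6 to 10 in 30.5%, and with 11 or more in 52.3% (46 of 88, 42.0 to 62.3%). Within each of these bands the share was higher beside an open neighbour than beside a closed one. With 0 distal regions it was 6.29% (5.14 to 7.68%) and 2.29% (1.71 to 3.05%), and with 1 to 2 it was 16.3% (14.5 to 18.2%) and 10.4% (8.23 to 13%), with intervals that did not overlap. With 3 to 5 it was 20.5% and 18.3%, with 6 to 10 it was 32.4% and 22.1%, and with 11 or more it was 55.4% and 35.7% (5 of 14), with intervals that overlapped. No test of the difference was made.

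Counted by region, open neighbours were about as frequent as at distal regions. The nearest coding gene was open for 988 of 1218 (81.1%), and for 80.0% of distal regions. The long noncoding and the coding gene were divergent in 407 cases, convergent in 337 and on the same strand in 474, and 295 regions lay inside a protein-coding gene. Regions with an open neighbour had median scores of 2.04 and 1.66, and the 230 with a closed neighbour 1.74 and 1.54.

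Genes beside T cell genes were open more often than the background. Of the 104 long noncoding genes whose nearest coding gene is in the T cell list, 39 had a region (37.5%, 28.8 to 47.1%), beside 12.4% of all 7506. They also lay among more distal regions, with a median of 4 within 50000 bp against 1 for all, and that part was not tested. In all, 58 regions (4.76%) had 28 of the T cell genes as neighbours, beside 2.70% of distal regions. Cd69, a marker of activated and positively selected thymocytes, had 6, and the co-receptor gene Cd8a, Myb and Tcf7 had 4 each.

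The highest of them was 2310001H17Rik, 37186 bp from Cd69, with 11.1 and 7.86 (9.48 ± 2.28). Its region holds the TSS and is also near the start of Gm47861. Gm28556, 15993 bp from Ptprc, which encodes the phosphatase CD45, had 10.7 and 5.82, the widest gap between replicates in this group. Ptprc itself had no shared strict region within 1000 bp of a TSS. Gm44174 scored 7.68 and 4.93 at 19387 bp from Cd8a. Gm26551 and A630014C17Rik lie inside Tcf7, a factor that commits cells to the T lineage, and scored 7.42 and 4.34, and 6.70 and 5.01. With 50% reciprocal overlap Gm28556 has no region. In a window of 500 bp Gm26551 has none and Gm44174 had a mean score of 2.15 in place of 6.31.

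Further down were Gm27162 near Ets1 with 5.63 and 5.06, Gm15417 near Zbtb7b, the gene that directs CD4 lineage choice, with 5.29 and 3.32, and Gm26692 near the repressor gene Gfi1 with 5.01 and 3.37. 2010110G14Rik, 173751 bp from Lef1, had 6.34 and 3.02 at its higher region. Each of these was higher in replicate 1. They were named as the highest beside T cell genes, so scores above the median of long noncoding promoter regions follow from that choice. The lowest region beside a T cell gene, that of 4632428C04Rik near Hes1, had 0.719 and 0.565. Gm15417 has no region at the gene's 5′ end, nor at over 5000 bp from coding genes.

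Shares differed between chromosomes, most clearly for 17 and Y. Chromosome 17 had the highest share, 73 of 366 genes (19.9%, 16.2 to 24.3%), while its coding genes, at 61.6%, were near the share of all coding genes. Chromosome 8 had the lowest autosomal share, 39 of 486 (8.02%, 5.93 to 10.8%). On X, 14 of 141 genes had a region (9.93%, 6.01 to 16.0%), an interval that covers the 10.8% of all long noncoding genes. On Y it was 0 of 550, which allows up to 0.545%. Coding genes were open in 41.1% of cases on X and in 4 of 183 on Y (2.19%). Sequence uniqueness was measured only in shared regions, so how many of the 550 genes on Y could receive unique reads is not known.

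The sequence of long noncoding promoters lay between that of coding promoters and distal regions. In 300 bp windows centred on each region, the median GC content was 53.3% for long noncoding promoters, 63.3% for coding promoters and 50.7% for distal regions. A window was called CpG-rich with a GC content of at least 50% and an observed over expected CpG ratio of at least 0.6. This held for 255 long noncoding promoter regions (20.9%, 18.7 to 23.3%), for 65.9% of coding promoters and for 4.96% of distal regions. Among regions that held the TSS it was 32.9%, against 14.3% of those that did not.

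CpG content separated the scores. CpG-rich long noncoding promoters had medians of 3.71 and 3.16 in replicates 1 and 2, and the 963 CpG-poor ones 1.79 and 1.49. CpG-rich coding promoters stood higher, at 6.41 and 4.81. CpG-poor coding promoters, at 1.93 and 1.62, were close to the CpG-poor long noncoding ones, and differed from them by less than the replicates did. A TSS lay inside 56.1% of the CpG-rich and 30.3% of the CpG-poor long noncoding regions.

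**Figure D4:**
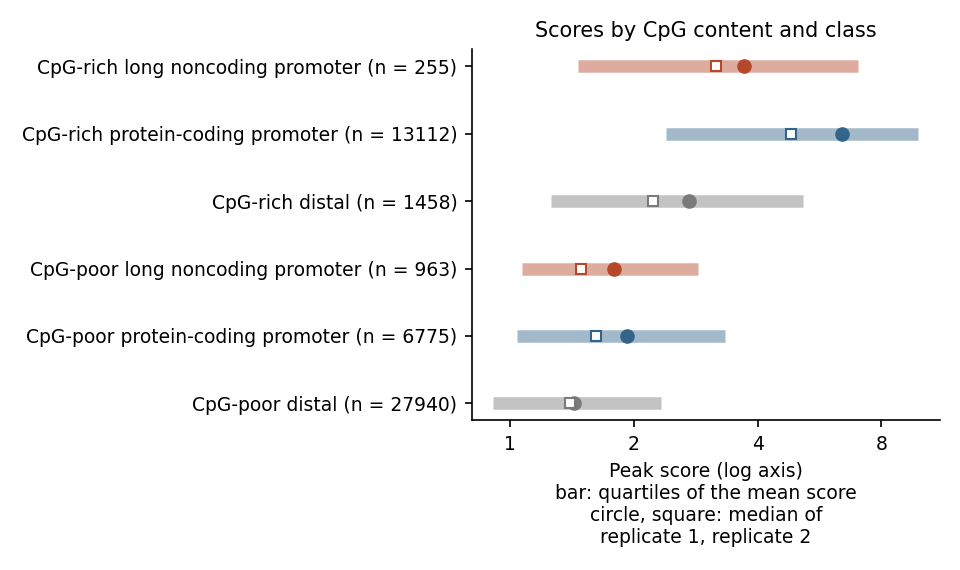
Peak scores (x, log axis) of CpG-rich and CpG-poor regions of 3 classes, with the quartiles of the mean score as bars and the medians of replicate 1 (circle) and replicate 2 (square). CpG-rich long noncoding promoters (3.71 and 3.16) lie above CpG-poor ones (1.79 and 1.49) and below CpG-rich coding promoters (6.41 and 4.81).

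Short consensus sequences of 16 kinds were searched on both strands of the 300 bp windows, and shares are given for long noncoding promoters, coding promoters and distal regions in that order. CTCF, the insulator factor, was more frequent than in coding promoters. Its consensus was found in 7.88%, 2.50% and 13.6% of windows, with an interval of 6.50 to 9.53% for the 96 long noncoding windows. Of its 96 matches there, 85 (88.5%) were centred in a footprint of both replicates. The same share was 89.0% in coding promoters and 90.5% in distal regions. As a base rate, 9.68% of all bases of the long noncoding windows lay in such footprints, 14.8% of those of coding promoters and 9.32% of those of distal regions. The match in Snhg7os shown above, at position 146 from its 5′ end, has 12 of 12 bases in capitals. The RUNX sequence TGTGGTTT was found in 4.43%, 1.42% and 4.85%. Of its 55 matches in long noncoding promoters, 12 were centred in a common footprint (21.8%, 12.9 to 34.4%). That interval covers the 13.1% in coding promoters and the 15.1% in distal regions. AGATAA, bound by GATA factors, was found in 8.21%, 4.80% and 12.1%, TCF/LEF (CTTTGAA) in 6.32%, 3.25% and 7.44%, and the IRF consensus in 5.09%, 2.55% and 3.92%. The AP-1 consensus was found in 6.16%, 3.03% and 6.49%, and the TATA box, searched as TATAAA, in 8.37%, 4.12% and 10.3%. The matches of GATA, TCF/LEF, IRF, AP-1 and the TATA box in long noncoding promoters were centred in a common footprint in 2.50 to 8.70% of cases. The counts were small: 5 of 106, 4 of 79, 6 of 69, 2 of 80 and 6 of 114 in that order. All were below the base rate of 9.68%, but only the interval of AP-1 (0.688 to 8.66%) excluded it. In coding promoters and distal regions TCF/LEF was above the base rate of its class, at 17.6% and 11.9%, and the rest were below. The gap between long noncoding and coding promoters was smaller among CpG-poor windows for every motif named so far. There, AGATAA was found in 9.35% of long noncoding and 9.15% of coding promoters, TCF/LEF in 6.96% and 5.42%, IRF in 5.71% and 3.99%, RUNX in 5.30% and 3.16%, and CTCF in 8.72% and 5.48%. AP-1 was found in 6.44% and 5.08%, and the TATA box in 8.72% and 6.88%.

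Over all windows, motifs typical of CpG-rich coding promoters were rarer in long noncoding promoters. The SP/KLF sequence GGGGCGGGG was found in 6.90%, 18% and 2.86%. The match in Gm12762, at position 136, has all 9 bases in capitals. The ETS core CCGGAAG was found in 6.73%, 14.5% and 3.93%, and the longer ETS sequence ACCGGAAGT, which contains it, in 0.903%, 1.54% and 0.316%. Within CpG-rich long noncoding promoters the shares were 18% for SP/KLF and 13.3% for the ETS core, and within CpG-rich coding promoters 23.7% and 18.3%. The cAMP response element TGACGTCA was found in 1.56%, 2.59% and 0.534%, and the NRF1 consensus in 0.164%, 0.955% and 0.122%. The YY1 consensus was found in 0 of 1218 long noncoding windows, in 1.17% of coding promoters and in 0.0306% of distal regions. The NFY sequence CCAAT was found in 28%, 30.6% and 27.4%, the E-box CACGTG in 7.72%, 9.28% and 6.68%, and the E protein sequence CAGCTG in 24%, 18.1% and 25.1%. Among CpG-rich windows some of these were not rarer in long noncoding than in coding promoters. TGACGTCA was found there in 3.53% and 3.48%, ACCGGAAGT in 2.75% and 2.05%, and CACGTG in 14.1% and 10.4%. Each long noncoding interval covered the coding share. NRF1, at 0.392% and 1.37%, YY1, at 0% and 1.71%, and NFY, at 29% and 30.9%, stayed lower. A match is a run of letters and does not show binding.

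The frequency of footprints followed the score. A footprint of both replicates, lying whole inside the region, was found in 995 of the 1218 (81.7%, 79.4 to 83.8%), in 83.8% of coding promoters and in 86.7% of distal regions. The share was 55.7% of the 262 regions under a score of 1, 77.3% from 1 to 2, 94.7% from 2 to 4, and 100% above 4 (175 of 175 and 66 of 66). In the 2 lowest bands coding promoters had less, 44.8% and 65.2%, and distal regions more, 72.1% and 88.5%, and the intervals of the 3 classes did not overlap there. Regions differ in width, with a median of 220 bp, 265 bp and 200 bp in the lowest band for long noncoding, coding and distal regions.

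**Figure D5:**
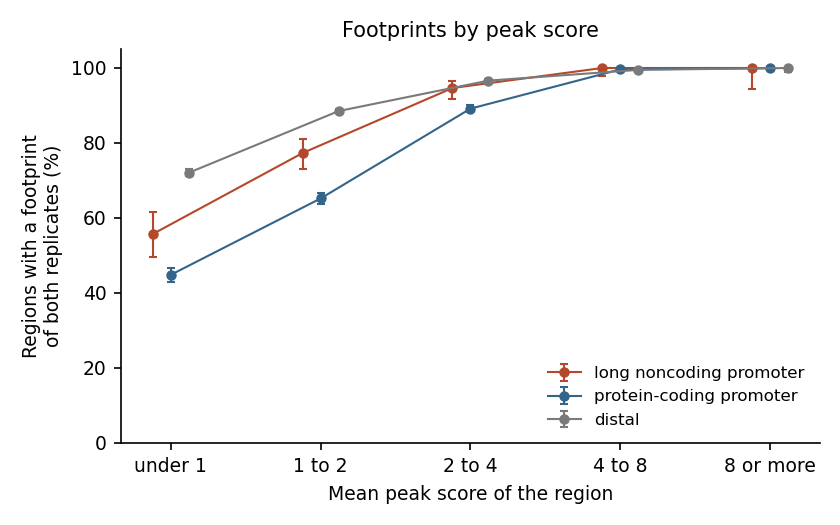
Share of regions with a footprint of both replicates (y axis, %) by mean peak score (x axis) for long noncoding promoters, coding promoters and distal regions, with 95% Wilson intervals. The long noncoding share lies between the others below a score of 2 (55.7% and 77.3%) and all 3 reach nearly 100% above 4.

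The most common footprints were found at Gm6410, with 14 in a region of 900 bp (scores 13.3 and 9.30). Gm37494 and Gm9530 had 11 each, with 12.7 and 7.94, and 6.24 and 5.03. Gm47061, antisense inside Tfap2a, had 10 at 4.85 and 4.49, and the region shared by Frmd8os and Neat1 had 9. Of these, Gm6410, Gm37494 and Gm9530 lie near coding genes that are open, and Tfap2a is not. With 50% reciprocal overlap Gm9530 has no region. Gm37494 had a mean score of 1.78 in place of 10.3 with that overlap, and also at the gene's 5′ end only.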

How the data were processed

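DNase I-seq of thymus from male B6CASTF1/J mice gave 2 samples, replicates 1 and 2 of 1 group. Per the deposited file descriptions, the authors made each list per sample from filtered alignments on mm10. The deposited peak lists give a signal value per peak (the score). Each sample has 2 peak lists, and the one with fewer peaks is called strict. The deposited FDR tracks list only stretches of bases with a false discovery rate under 0.05, and were looked up at genes without a region. The footprint files hold the same 0.01 in each row, so only footprint positions entered. Which aligner, peak caller and footprint software made these files is not stated in those descriptions.

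Overlapping peaks of a list were joined, keeping the highest score, and regions were formed as in the report. All TSSs of GENCODE M21 genes on the 19 autosomes, X and Y were used. Footprints counted as shared when a footprint of replicate 1 overlapped one of replicate 2 by at least 1 bp, and were reduced to the common bases. Uniqueness is the share of 31-base words found once in GRCm38.p6. The members, gene lists, motifs and the rule for named genes were chosen with earlier results of these data known. Named genes are the 10 highest regions, the 5 highest over 50000 bp from coding genes, the 5 with most shared footprints, the 10 highest beside a T cell list gene, and all genes of 6 lists. Snhg7os was named after its values were seen, for its CTCF match. No test was run, and the alternatives changed the overlap, peak list, window, TSS choice, coding distance, gene types, footprint overlap and replicates. The steps were tested on simulated data. Software was bedtools 2.31.1 and Python 3.11.15 with pysam 0.24.0, numba 0.67.0, scipy 1.17.1, matplotlib 3.10.9, pandas 2.3.3 and numpy 2.4.6.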

Additional observations from a re-analysis of the deposited data

How the results depend on the processing

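The number of regions stayed within 1.5 times of 1218 under every alternative but the 2500 bp window, which gave 2003. It was 1500 without replicate 1 and 1478 without replicate 2. The share of long noncoding genes with a region, 10.8%, moved by more than the spread between replicates under each alternative. It was 9.62% with 50% reciprocal overlap, 13.4% with the looser lists, 9.02% with the 50000 highest peaks, 8.41% and 16.3% with windows of 500 and 2500 bp, 9.95% with the gene's 5′ end only, 8.60% at over 5000 bp from coding TSSs, 11.1% with more gene types, and 11.9% to 12.1% with 1 replicate left out. The median mean score, 1.83, was 1.34 with the looser lists, 2.26 with the 50000 highest peaks, and 1.37 to 1.64 with 1 replicate left out. The share with a footprint of both replicates, 81.7%, was 86.3% with 50% reciprocal overlap of peaks, 74.5% with that of footprints, 70.4% with the looser lists, 88.3% with the 50000 highest peaks, and 83.3% and 83.0% with windows of 500 and 2500 bp. With 1 replicate left out, 85.1% to 85.8% of the remaining replicate's own regions held a footprint of that replicate alone, which is not the same measure. The share with an accessible coding neighbour, 81.1%, was 76.8% with 50% reciprocal overlap, 83.0% with the looser lists, 78.9% and 85.0% with windows of 500 and 2500 bp, 79.0% at over 5000 bp from coding TSSs, and 81.5% to 83.3% with 1 replicate left out. The causes were not tested. Of 48 named genes, these had no region under an alternative: Airn, Gm28556, Gm9530, Ifngas1 and Tug1 with 50% reciprocal overlap, Ifngas1, Meg3, Tsix, Tug1 and Xist with the 50000 highest peaks, Gm15564, Gm26551, Meg3, Mir17hg and Xist with 500 bp, D730045B01Rik, Gm14005, Gm15417, Gm15564, Meg3, Mir670hg, Tsix and Tug1 with the 5′ end only, and Epb41l4aos, Gm12762, Gm15417, Gm15564, Nespas and Tug1 at over 5000 bp. Mean scores moved beyond the replicate SD in 9 cases: Gm37494 from 10.3 to 1.78 (50% overlap, and 5′ end only), Ftx from 5.95 to 1.97 and Lncpint from 4.07 to 1.79 (5′ end only), Gm44174 from 6.31 to 2.15 and Malat1 from 18.3 to 10.1 (500 bp), Mir142hg from 13.96 to 10.9 (over 5000 bp), Mir17hg from 4.78 to 7.13 (2500 bp) and Ifngas1 from 0.387 to 0.421 (looser lists). No paired analysis was possible because there is 1 group. Depth is not stated, so a closed promoter may be open below the limit of these lists.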

Other observations

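The 1496 shared regions that the rule left out for lying within 1000 bp of a long noncoding and a protein-coding TSS together had median scores of 4.83 in replicate 1 and 3.52 in replicate 2. These are above the medians of all coding promoter regions, 4.12 and 3.12, and of the 1218 long noncoding promoter regions, 1.98 and 1.63. Of the long noncoding genes with any shared region at a TSS, 933 of 1886 were open in such regions only.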
